A study of Mus musculus with 6 samples.

Results

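The enzymes and the transporter that build the lipid barrier of the epidermis were compared between wild-type and knock-in mouse skin. The set comprised 10 genes: Sptlc3, Degs2, Elovl4, Cyp4f39, Cers3, Ugcg, Abca12, Alox12b, Aloxe3 and Lipm. Its members were all 16 probe sets whose annotation names 1 of these genes alone, out of 45037 probe sets that are not controls and 18193 genes with a symbol of their own. The study hybridised biotin-labelled total RNA from skin of 3 wild-type and 3 knock-in samples, 1 array per sample. All 6 were on the C57BL/6 background. The wild-type group is labelled WT, and the knock-in group carries the genotype code KA and the source name KAB6. The 3 arrays of each group are called WT1 to WT3 and KI1 to KI3 by replicate number. The labels do not name the altered gene, and they give no sex, age, body site or treatment. Nothing in them says that the samples came from separate animals, so p-values measure only the spread between these arrays, which may be technical.

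The outer layer of the epidermis is sealed by stacked lipid sheets rich in ceramides. A ceramide joins a long-chain base, which serine palmitoyltransferase begins and a desaturase or hydroxylase finishes, to a fatty acid. In the epidermis that fatty acid is elongated to unusual length and hydroxylated at its end, and the resulting ceramides are glucosylated, packed into lamellar granules by a lipid transporter, secreted and oxidised by lipoxygenases before they are bound to the cornified envelope. Inherited loss of several of these genes, among them ABCA12, ALOX12B, ALOXE3, CERS3 and CYP4F22 (the human counterpart of mouse Cyp4f39), causes ichthyosis in humans.

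The promoters of the 3 genes with the largest differences are shown because Degs2 and Sptlc3 were higher in knock-in, whereas Lipm was lower. The RefSeq table of assembly GRCm38.p6 held an entry for 9 of the 10 genes, each with 250 bases before and 50 bases after the gene's start. Capitals mark matches to any of 5 motifs, chosen after the values were seen and searched on both strands. They were TGANTCA for AP-1, AACNNGTT for Grainyhead factors, GGGTG for KLF factors, TTGCNNAA for C/EBP and TATAAA for the TATA box.
Degs2, chr12:108702257-108702556 (- strand): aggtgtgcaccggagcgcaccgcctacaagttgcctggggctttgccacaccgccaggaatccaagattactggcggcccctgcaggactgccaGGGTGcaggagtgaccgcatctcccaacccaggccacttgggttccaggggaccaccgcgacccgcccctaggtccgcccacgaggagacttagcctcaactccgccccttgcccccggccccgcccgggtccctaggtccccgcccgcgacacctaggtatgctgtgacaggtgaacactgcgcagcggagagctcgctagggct
Sptlc3, chr2:139493663-139493962 (+ strand): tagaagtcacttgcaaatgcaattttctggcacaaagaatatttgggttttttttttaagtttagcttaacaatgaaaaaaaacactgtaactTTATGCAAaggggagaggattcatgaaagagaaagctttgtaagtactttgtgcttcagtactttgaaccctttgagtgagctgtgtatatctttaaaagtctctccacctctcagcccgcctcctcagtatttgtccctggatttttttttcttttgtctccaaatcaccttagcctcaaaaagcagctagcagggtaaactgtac
Lipm, chr19:34100693-34100992 (+ strand): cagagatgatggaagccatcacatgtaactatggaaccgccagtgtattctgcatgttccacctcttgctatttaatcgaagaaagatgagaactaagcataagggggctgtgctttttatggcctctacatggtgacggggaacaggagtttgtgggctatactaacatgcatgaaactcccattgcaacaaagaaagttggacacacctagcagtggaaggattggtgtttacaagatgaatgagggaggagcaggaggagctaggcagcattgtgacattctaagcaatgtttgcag
The Degs2 window held 1 KLF match at position -156 from the start, and the Sptlc3 window 1 C/EBP match at position -157. The Lipm and Elovl4 windows held no match to the 5 motifs. Over the 9 windows, KLF letters were present in 4 and C/EBP letters in 1, while 57.5% and 10.8% of all 32851 promoters of this length held them. AP-1, Grainyhead and TATA box letters were in 0 of the 9, against 7.81%, 4.2% and 13.6% of all promoters. The 4 windows with KLF letters were those of Degs2, Ugcg, Alox12b and Cers3. Base composition ranged widely, with a GC content of 67.7% for Degs2, 71% for Elovl4, 81.3% for Ugcg and 37.3% for Sptlc3, beside a median of 52.7% over all promoters and 45.3% for Lipm. These are descriptions of letters in a window and not binding sites.

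The deposited values are MAS5 signals, a linear brightness per probe set. They were tested as log2(signal + 16), a scale that understates the change of dim genes, with limma's moderated test and Benjamini-Hochberg adjustment over all probe sets tested. A probe set was tested where it lay above its own array's median on at least 3 of the 6 arrays. Differences are knock-in minus wild-type with their standard errors, and the threshold was an adjusted p of 0.05. Because probe sets differ in brightness for the same RNA, levels were compared only within a probe set. Array medians lay between 37.5 and 45.7. Pearson's r across probe sets, which are not independent replicates, was 0.976 to 0.983 within wild-type, 0.981 to 0.984 within knock-in and 0.899 to 0.929 between them. The mean signal of Y-linked Eif2s3y was 687 in wild-type against 5.04 in knock-in, and that of Xist 29.7 against 3729.7, so that sex and genotype cannot be told apart here. In whole skin, fewer cells of a type and less RNA per cell cannot be told apart either.

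Of the 16 probe sets, 14 were tested. Of these, 5 were higher in knock-in, 2 were lower and 7 did not pass. On dropping WT1, WT3, KI1 or KI3, 3 were higher. Among all 23153 probe sets tested, 30.3% passed in either direction, 13.0% higher and 17.3% lower. When log2 values were centred on each array's median, the members' calls were 5 higher and 2 lower again, but all differences moved up by 0.13, and the share of higher calls among all calls went from 42.8% to 63.9%. The tested members had a median log2 difference of 0.12, beside -0.06 for all tested probe sets. The groups did not overlap for 7 of the 14, 5 higher and 2 lower, where this held for 46.4% of all probe sets tested, 19.4% higher and 27.1% lower. Taking each gene by its brightest probe set, Sptlc3, Degs2, Elovl4 and Ugcg rose, Lipm fell, and Cyp4f39, Cers3, Abca12, Alox12b and Aloxe3 did not pass. For genes counted in that way the background was 31.2%, with 14.9% higher and 16.3% lower. The members called higher were 5 of 14 beside the 13.0% of the background, and the differences ran from -1.26 to 1.25. As the genes were chosen with earlier results known, the counts describe these genes alone.

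**Figure D1:**
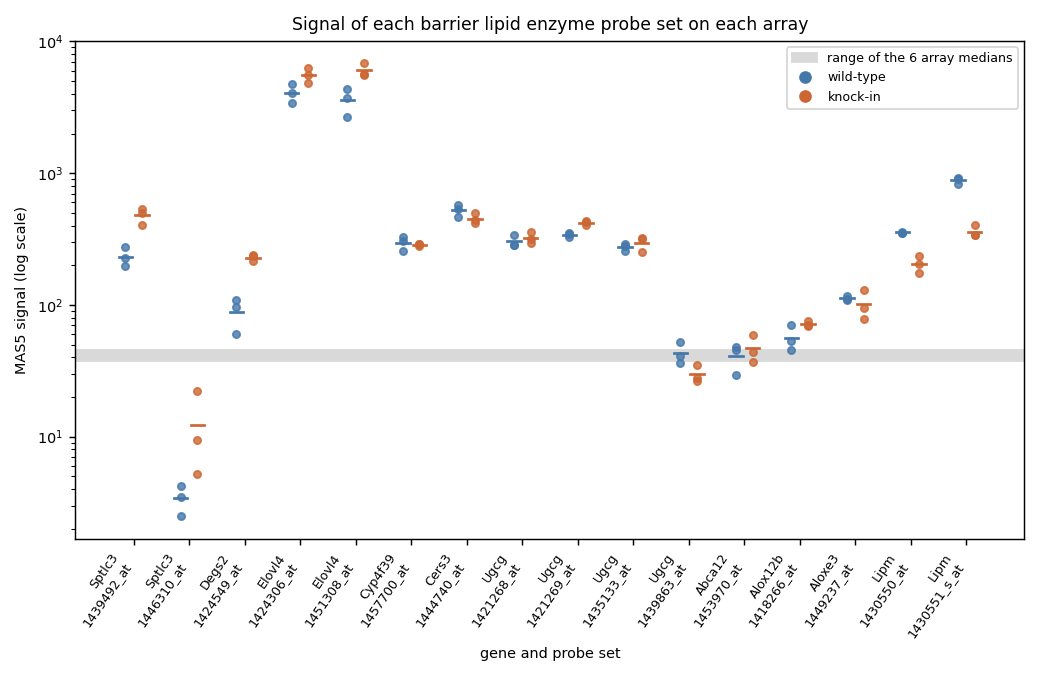
Each point is the MAS5 signal (log axis) of 1 probe set on 1 array, with wild-type in blue, knock-in in orange and short bars at the group means (n = 3); the grey band spans the 6 array medians, 37.5 to 45.7. The groups separate for the brighter Sptlc3 probe set, Degs2, both Elovl4 probe sets, Ugcg 1421269_at and both Lipm probe sets, and also for the 2 dim probe sets that were not tested (Sptlc3 1446310_at and Ugcg 1439863_at), while Abca12 and Alox12b lie near the array medians.

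The genes that make the long-chain base had the largest increases of the set. Degs2 encodes the desaturase and hydroxylase that converts dihydroceramide to ceramide and phytoceramide. Its probe set (1424549_at) read 109.8, 96.7 and 60.0 in wild-type and 238, 214 and 234 in knock-in. Every knock-in array was above every wild-type array, and the lowest wild-type value lay well apart from the other two. Its mean went from 88.8 ± 25.8 to 229 ± 12.5 (SD, n = 3), a ratio of 2.58, with a log2 difference of 1.25 ± 0.18 (limma, adjusted p = 0.00113). Sptlc3 encodes a catalytic subunit of serine palmitoyltransferase that is expressed in skin. Its brighter probe set (1439492_at) read 226, 276 and 196 in wild-type and 532, 402 and 500.3 in knock-in. The groups did not overlap, with means of 233 ± 40.5 and 478 ± 67.6, a ratio of 2.05. The log2 difference was 0.99 ± 0.15 (adjusted p = 0.00137). The other Sptlc3 probe set (1446310_at) lay below the array median on all 6 arrays, at 2.49 to 4.21 in wild-type against 5.21 to 22.3 in knock-in, and was not tested. Fitted without the filter on dim probe sets, it had a log2 difference of 0.50 and did not pass (adjusted p = 0.163). The calls for Degs2 and for 1439492_at held under all 19 alternatives, with log2 differences of 0.95 to 1.40 and 0.75 to 1.12. For Sptlc3, the alternative that averages probe sets per gene includes the dim one.

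Elovl4, the elongase that extends fatty acids to the very long chains of barrier ceramides, was read by 2 probe sets. The first (1451308_at) gave 3738, 4338 and 2666 in wild-type and 6816, 5576 and 5673 in knock-in. The second (1424306_at) gave 4064, 4752 and 3385 in wild-type and 6288, 4832 and 5533 in knock-in. In both, the knock-in arrays were the higher 3, although in the second the nearest values of the groups were only 4752 and 4832. The log2 differences were 0.77 ± 0.17 (adjusted p = 0.0079) and 0.45 ± 0.14 (adjusted p = 0.0344). The call of 1451308_at held in all 17 alternatives that tested it. That of 1424306_at was lost on dropping WT1 (adjusted p = 0.0682), WT3 (0.131), KI1 (0.0986) or KI3 (0.0958). Its adjusted p spanned 0.00879 to 0.131 across the 19 alternatives. Cyp4f39, the mouse counterpart of the omega-hydroxylase CYP4F22 that acts on these long chains, read 329, 307 and 257 in wild-type and 289, 279 and 291 in knock-in. The knock-in values fell inside the wild-type range, and the log2 difference of -0.05 ± 0.11 did not pass (1457700_at, adjusted p = 0.78, 95% interval -0.30 to 0.21). It turned to 0.08 with median centring and to 0.02 on dropping WT1.

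Cers3, the ceramide synthase for these very long fatty acids, read 531, 465 and 575 in wild-type and 442, 498 and 417 in knock-in (1444740_at). The groups overlapped through 1 array of each. Its log2 difference was -0.20 ± 0.11 (adjusted p = 0.209, 95% interval -0.46 to 0.05), and with median centring it was -0.07 (adjusted p = 0.707). Ugcg, which adds glucose to ceramide, had 4 probe sets that did not move as one. Its brightest (1421269_at) read 325, 348 and 353 in wild-type and 429.8, 429 and 401 in knock-in, without overlap, a log2 difference of 0.28 ± 0.09 (adjusted p = 0.0473). That call sat at the threshold and was lost without any 1 of the 6 arrays, with adjusted p between 0.0804 and 0.136. Across the alternatives that read this probe set by itself, its adjusted p spanned 0.0137 to 0.136. The probe sets 1421268_at and 1435133_at had log2 differences of 0.09 ± 0.11 and 0.10 ± 0.12 and did not pass. The remaining one (1439863_at) was dim and not tested, with 52.1, 36.0 and 40.9 in wild-type and 35.0, 27.9 and 26.3 in knock-in, so its means ran the opposite way. With the log2 values of its probe sets averaged, Ugcg had a difference of 0.03 (adjusted p = 0.839).

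**Figure D2:**
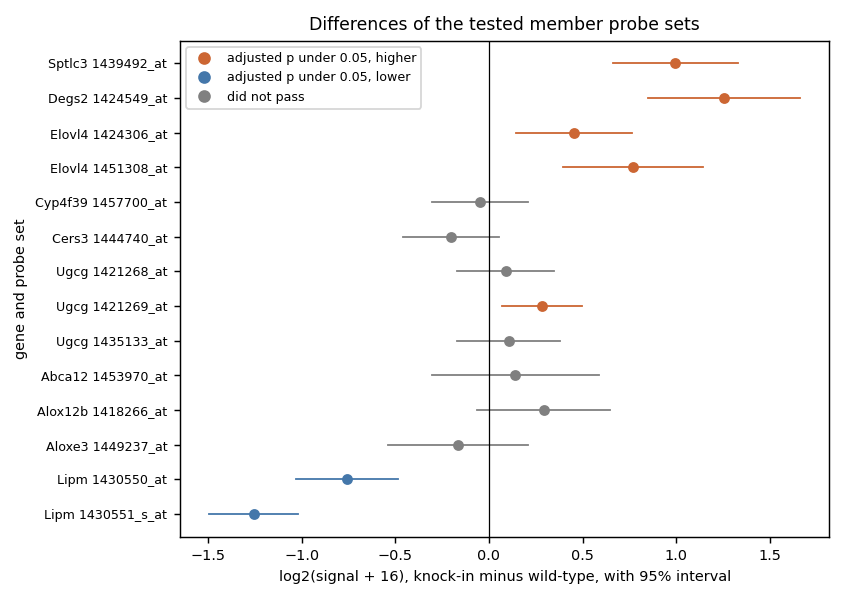
Points are log2(signal + 16) differences, knock-in minus wild-type, of the 14 tested member probe sets, with 95% intervals from limma; orange marks those past an adjusted p of 0.05 and higher, blue those lower, and grey those that did not pass. Degs2 lies highest at 1.25 and Lipm 1430551_s_at lowest at -1.26, and both Elovl4 probe sets lie above 0.

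Abca12, the transporter that loads glucosylceramides into lamellar granules, was near the array median throughout. Its probe set (1453970_at) read 29.2, 45.6 and 48.0 in wild-type and 59.1, 44.1 and 36.9 in knock-in, and it passed the filter with 2 arrays of each group. The log2 difference was 0.14 ± 0.20 (adjusted p = 0.625, 95% interval -0.30 to 0.59), and it was -0.02 on dropping WT1. The lipoxygenases Alox12b and Aloxe3 act in sequence on the linoleate of acylceramides. Alox12b (1418266_at) read 53.5, 70.4 and 45.4 in wild-type and 75.6, 69.2 and 70.6 in knock-in. The knock-in arrays clustered together at the upper end of a wider wild-type spread, and the log2 difference of 0.29 ± 0.16 did not pass (adjusted p = 0.191, 95% interval -0.06 to 0.65). Aloxe3 (1449237_at) read 109, 118 and 112 in wild-type and 130.2, 77.7 and 94.4 in knock-in. Here the spread was in knock-in, which held both the highest and the lowest array, and the log2 difference was -0.16 ± 0.17 (adjusted p = 0.488, 95% interval -0.54 to 0.21). Abca12 and Alox12b were dim, so the offset of 16 compresses their differences, and these arrays bound them only to within the intervals given.

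Lipm, a lipase of late-differentiating keratinocytes, was the 1 gene of the set that fell. The brighter probe set (1430551_s_at) read 913, 829 and 899 in wild-type and 405, 337 and 339 in knock-in. The lowest wild-type array read 829 and the highest knock-in array 405. The mean went from 880.3 ± 45.2 to 360.3 ± 38.7, a ratio of 0.409 and a log2 difference of -1.26 ± 0.10 (adjusted p = 6.29e-05). The suffix _s_at marks a probe set that may also match other transcripts. The other probe set (1430550_at) carries no such mark. It read 355, 359 and 354 in wild-type and 237, 175 and 204 in knock-in, again without overlap, a log2 difference of -0.76 ± 0.12 (adjusted p = 0.00187). Both calls held in every alternative that tested them, 18 for the first and 17 for the second.

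**Figure D3:**
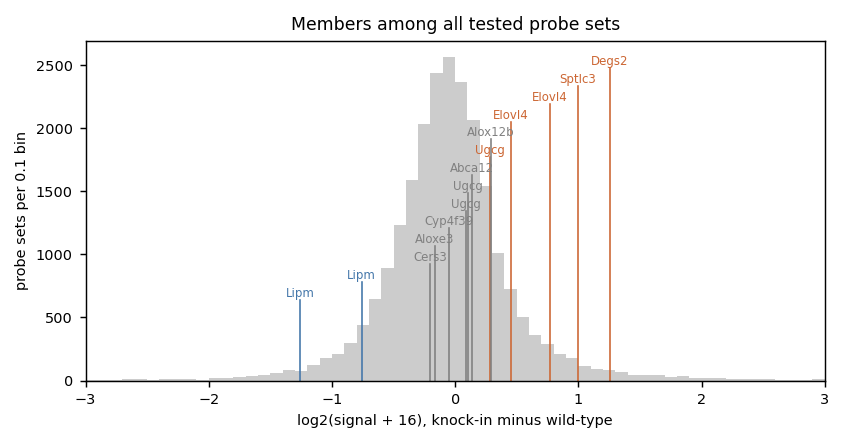
Grey bars count all 23153 tested probe sets by log2(signal + 16) difference, knock-in minus wild-type, in bins of 0.1, and lines mark the 14 tested member probe sets (orange higher, blue lower, grey did not pass; line height has no meaning; the axis is limited to -3 to 3). Degs2, Sptlc3 and the Lipm probe sets lie in the tails, and Cers3, Cyp4f39 and Aloxe3 near the peak.

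The neighbouring steps of the pathway were read from lists that left the 10 members out, each gene by its brightest probe set. Over 84 tested genes of 6 lists, 21 rose, 20 fell and 43 did not pass, and their median log2 difference was 0.01, beside -0.02 over all 11680 genes tested. Of all those genes, 14.9% rose and 16.3% fell, the background for each list below. The lists were chosen with earlier results of these data known, so their counts describe the listed genes alone. On dropping KI3, 13 genes of the lists fell. Among 7 long-chain base genes, 3 rose and 2 fell, and the median was 0.24. Degs1, the general dihydroceramide desaturase, had a mean of 848 ± 97.2 in wild-type against 2095 ± 126 in knock-in. Its log2 difference was 1.29 ± 0.10 (adjusted p = 5.23e-05), and its other probe set also rose. Sptlc2, the more widely expressed relative of Sptlc3, rose by 0.62 ± 0.14 (adjusted p = 0.00856), while its other tested probe set had a difference of -0.03 and its probe sets averaged to 0.30 (adjusted p = 0.0977). Sptlc1, the shared subunit of the transferase, named after its values were seen, rose by 0.48 ± 0.13 (adjusted p = 0.0228). That call was lost on dropping WT2 (0.068), WT3 (0.0895), KI2 (0.0746) or KI3 (0.0697), or with its probe sets averaged (0.0534), and its adjusted p spanned 0.00783 to 0.0895.

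The 2 long-chain base genes that fell are regulators of the transferase. Sptssb, a small subunit that shifts it toward longer substrates, read 419.8, 214 and 358 in wild-type and 50.5, 96.5 and 68.8 in knock-in. All 3 knock-in arrays were below the lowest wild-type array, and the log2 difference was -1.96 ± 0.25 (1417803_at, adjusted p = 6.49e-04). Ormdl1, of a family that inhibits the transferase, had a log2 difference of -0.70 ± 0.14 (adjusted p = 0.00517). With the probe sets of each gene averaged, 1 long-chain base gene rose in place of 3. The averages of Sptlc1 and Sptlc2 each include a dim probe set that was not tested.

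Among 18 fatty acid elongation genes, 6 rose and 1 fell, with a median of 0.16. On dropping KI3, or with median centring, 0 fell in limma's test. Elovl3, an elongase of sebaceous glands that is also on the list of sebaceous markers, read 1366, 863 and 626 in wild-type and 2909, 2620.3 and 3071 in knock-in, a log2 difference of 1.64 ± 0.23 (adjusted p = 9.48e-04). Elovl7, another elongase, and Hsd17b12, the reductase of the elongation cycle, rose by 0.63 ± 0.11 and 0.67 ± 0.13. Slc27a4, a fatty acid transporter whose loss disrupts the skin barrier in mice, rose by 0.63 ± 0.12 (adjusted p = 0.00458). Among 13 genes of ceramide synthesis and turnover, 5 rose and 3 fell, with a median of 0.19. Cers4, a ceramide synthase for shorter chains than those of Cers3, read 955, 851 and 464 in wild-type and 1665, 1485 and 1923 in knock-in, a log2 difference of 1.20 ± 0.23 (adjusted p = 0.00488), and all 3 of its probe sets rose. The alkaline ceramidase Acer1 fell by 0.65 on the log2 scale (adjusted p = 0.00312), Psap, which makes the saposins, rose by 0.48 ± 0.11, and Acer2 rose by 0.60 ± 0.12 but had -0.03 with its probe sets averaged. On dropping WT1, KI1, KI2 or KI3, or with median centring, 1 gene of this list fell, and on dropping KI3, 3 rose.

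Among 16 genes of acylceramide formation, related lipases, lipoxygenases and Cyp4f enzymes, 3 rose and 5 fell, with a median of -0.08. Abhd5, a co-activator of lipases, rose by 0.58 ± 0.10 (0.22 with its probe sets averaged, adjusted p = 0.128), and its partner Pnpla2 rose by 0.92 ± 0.15 (0.49 averaged). For each, the average includes a dim probe set that was not tested. Cyp4f18, which in mice is expressed in neutrophils and metabolises leukotriene B4, was higher in knock-in, with signals of 26.0, 31.4 and 37.9 in wild-type against 232, 148 and 285 (adjusted p = 1.22e-04). It passed the filter through the knock-in arrays alone, since 0 of the 3 wild-type arrays lay above their own median. The lipoxygenase Alox8 was lower, with signals of 121, 70.5 and 135 in wild-type against 24.9, 31.8 and 31.2 in knock-in (adjusted p = 0.00132). It passed through the wild-type arrays alone, with 0 of 3 knock-in arrays above their own median. Lipk, a relative of Lipm, and Pnpla1, the transacylase that completes acylceramide, were named after their values were seen. Lipk had a log2 difference of -0.98 ± 0.18 (adjusted p = 0.00417) and Pnpla1 one of -0.50 ± 0.15 (adjusted p = 0.0284). The Pnpla1 call was lost with median centring (0.0815), without the filter on dim probe sets (0.0522), and on dropping WT1 (0.0571), WT3 (0.11), KI2 (0.09) or KI3 (0.0717). On dropping WT1 or WT3, 3 genes of this list fell, and 2 with a filter that asks for all 6 arrays.

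**Figure D4:**
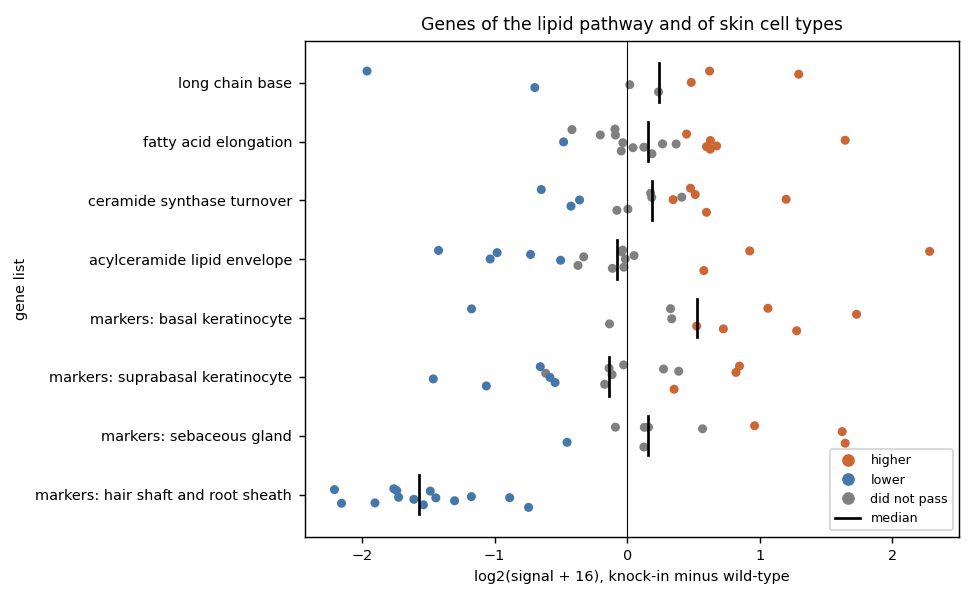
Each point is 1 tested gene by its brightest probe set, placed by its log2(signal + 16) difference, knock-in minus wild-type (orange higher, blue lower, grey did not pass, black bars the list medians; vertical scatter has no meaning). The long-chain base, elongation and ceramide synthase lists have medians of 0.24, 0.16 and 0.19, and all 14 hair shaft and root sheath markers lie below 0.

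Markers of the cells that make or surround these enzymes moved as well. The marker lists too were chosen with earlier results known, and over all genes tested 14.9% rose and 16.3% fell. Of 9 basal keratinocyte markers, 5 rose and 1 fell, and their summed signal spanned 19679 to 22860.3 in wild-type against 25074 to 29585 in knock-in. Leaving out probe sets with the suffix _s_at, _x_at or _a_at, 2 rose. Those of Krt14 (_x_at), Lamb3 and Lama3 (_a_at) were left out by suffix alone, and whether they match other genes was not tested. Of 15 suprabasal markers, 3 rose and 5 fell, and their summed signals overlapped, at 55391 to 62567 in wild-type against 52383 to 69022 in knock-in. On dropping WT3, 1 suprabasal marker rose. Those that rose were Rptn (0.85), Hrnr (0.82) and Lgals7 (0.35), and those that fell Tgm3 (-1.46), Dsg1a (-1.06), Cdsn (-0.65), Dsc1 (-0.58) and Ivl (-0.54), as log2 differences. These markers were named after their values were seen, and they include proteins of the cornified envelope in both directions. Of 9 sebaceous gland markers, 3 rose and 1 fell, with sums of 17605 to 22353 against 22317 to 26026. Plin5, 1 of the 3 that rose, had 0 wild-type arrays above their own median and passed the filter through knock-in alone. On dropping KI1 or KI3, 1 rose, and the 1 that fell was lost with median centring and on dropping any array but WT3. All 14 hair shaft and root sheath markers fell, with sums of 71395 to 92704 in wild-type against 23084 to 43358 in knock-in. Of 12 neutrophil and macrophage markers, 9 rose and 0 fell, with sums of 6366 to 9331 against 23084 to 31051, 5 rose on dropping KI1 or KI3, and 4 with a filter on all 6 arrays. Csf3r, Cxcr2, Mmp8 and Ngp, 4 of the 9, had 0 wild-type arrays above their own median and passed through knock-in alone. Of 8 skeletal muscle markers, 0 rose and 5 fell in limma's test, with sums of 37399 to 59575 in wild-type against 21470.4 to 35628 in knock-in. Of 7 adipocyte markers, 2 rose and 1 fell, and of 7 fibroblast markers 1 rose and 1 fell, with sums that overlapped between the groups. On dropping KI3, 1 adipocyte marker rose. The adipocyte marker that fell was lost on dropping any array but WT1, when 2 fell, and the fibroblast marker that fell was lost on dropping WT3, KI2 or KI3. The part of these cell populations in the members' differences was not tested.

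Within-array ratios asked whether related enzymes changed unequally, over 5 pairs. The log2 ratio of Degs2 to Degs1 was -0.04 apart (exact permutation p = 0.8, two-sided as for all pairs), a p that does not show that they changed alike. Sptlc3 against Sptlc2 differed by 0.37 (exact p = 0.2), and Elovl4 against Elovl1 by 0.19 (exact p = 0.3). Each gene was read by its brightest probe set, which for Elovl4 was 1424306_at, with a log2 difference of 0.45. A ratio with the other Elovl4 probe set (1451308_at, 0.77) was not tested. Alox12b against Aloxe3 differed by 0.46, with ratios of -0.84, -0.63 and -1.06 in wild-type against -0.67, -0.14 and -0.35 in knock-in (exact p = 0.2). For Cers3 against Cers4 the ratios were -0.83, -0.85 and 0.30 in wild-type and -1.88, -1.54 and -2.16 in knock-in, a difference of -1.40 without overlap (exact p = 0.1). That is the smallest p that 3 against 3 allows, and adjusted over the 5 pairs it was 0.333, so none of these comparisons could pass 0.05.

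**Figure D5:**
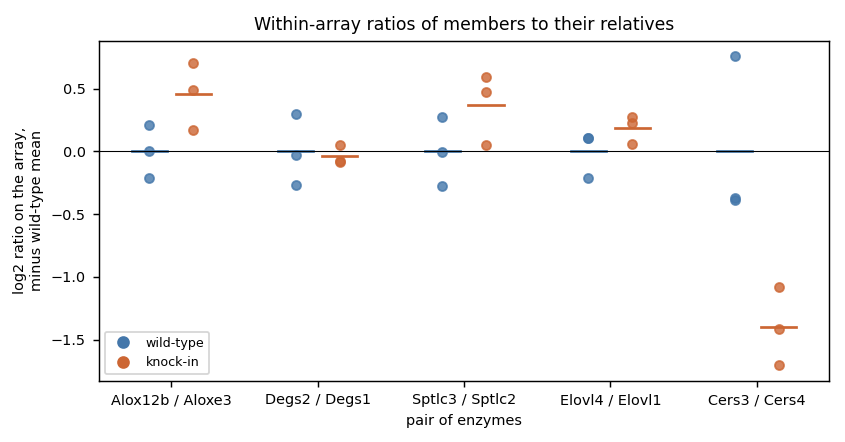
Points are log2 ratios of 2 enzymes on the same array, minus the wild-type mean of that ratio, for wild-type (blue) and knock-in (orange), with short bars at group means (n = 3). Cers3 over Cers4 falls by 1.40 and does not overlap between the groups, whereas Degs2 over Degs1 differs by -0.04.

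The genes whose 6 values ran nearest to those of Degs2, among 11679 others, were Ces4a, Ripk3 and Cers4. The measure was the root mean square distance of log2 values over the 6 arrays, each gene relative to its wild-type mean, and it was 0.10, 0.10 and 0.13. Ces4a, a carboxylesterase, rose by 1.18 ± 0.15, and Ripk3, a kinase of necroptosis, by 1.36 ± 0.19. Nearest to Lipm were Ndufs5, a subunit of respiratory complex I, Efhd2, a calcium-binding protein, and Cyp2b19, a keratinocyte epoxygenase in mice, at distances of 0.10, 0.11 and 0.11. Cyp2b19 averaged 221 in wild-type and 84.9 in knock-in, and its log2 difference was -1.23 ± 0.11 (adjusted p = 7.68e-05). Because these genes were picked for lying near the member, their differences and p-values follow from that choice.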

How the data were processed

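Gene expression in skin was measured on 6 single-channel arrays, 3 wild-type and 3 knock-in. The authors deposited linear MAS5 intensities, per the submitters' processing notes, which give no version. After trimming 2% at each end, all arrays averaged 150.001, and they were scaled no further. There are no detection calls, and the number of arrays limits the precision (median standard error 0.14 on the log2 scale). Of 45101 probe sets, 64 controls were removed; 34945 have 1 gene symbol, 932 several and 9160 none, and the last 2 kinds named no gene.

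The test used limma 3.58.1 (R 4.3.3; lmFit, eBayes with trend, two-sided) on log2(signal + 16), adjusted by Benjamini-Hochberg over 23153 probe sets above the array median on at least 3 arrays. All 16 member probe sets matched the RefSeq gene table by gene ID. A gene on a list was read by its brightest probe set. The members and lists were chosen with earlier results of these data known. Named were all members, the up to 4 genes of each pathway list with the smallest p, and the 3 genes nearest to the most increased and most decreased member; others are marked in the text. The fit was tested on simulated data. The alternatives changed the offset, filter, normalization, variance prior, array weights, probe set rule, block or array set.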

Additional observations from a re-analysis of the deposited data

How the results depend on the processing

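The members' counts moved with several settings. Against 5 member probe sets higher, there were 3 without a filter on dim probe sets, without a variance trend, with probe sets averaged per gene or with the replicate block, and 3 to 4 with an array left out (3 on dropping WT1, WT3, KI1 or KI3). The calls lost were Elovl4 1424306_at and Ugcg 1421269_at; with averaging, Elovl4 had a single entry. Against 2 lower, there was 1 with the brightest probe set or the mean per gene, or without probe sets marked _s_at, _x_at or _a_at. The reason is that Lipm then has a single entry. Over all probe sets, 2999 were higher and 4011 lower. These became 1729 and 1908 with the brightest probe set per gene, and 1498 and 1761 with the mean, where fewer rows are tested. With median centring 2501 were lower. With an array left out, 1771 to 2837 were higher and 2135 to 3388 lower; the shifts over 1.5 times came on dropping WT3 (1999 and 2135), KI1 (1934 higher) and KI3 (1771 and 2597). Genes of the pathway lists that fell numbered 13 to 17 with an array left out. Some directions turned. Abca12 ranged from -0.0179 to 0.256 and Cyp4f39 from -0.144 to 0.0238 with an array left out, Cyp4f39 was 0.0838 with median centring, and Acer2 was -0.0296 with probe sets averaged. The ratio of Degs2 to Degs1 differed by 0.0897 with an offset of 1, 0.0797 after quantile normalization, and -0.175 to 0.11 with an array left out. Same-numbered arrays did not deviate together (r = -0.24, -0.34 and -0.05, beside -0.02 to 0.28 for other pairs). With 3 arrays per group, these correlations cannot show whether the numbers pair the arrays, and the labels do not say. The replicate block called 2145 probe sets higher and 2743 lower. The cause of the other shifts was not tested. The settings for list counts and named list genes were chosen after seeing the data.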

Other observations

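Proteases that shed the outermost cells, and regulators of the barrier, were also read. Over all genes tested by their brightest probe set, 14.9% rose and 16.3% fell. Among 11 proteases and inhibitors, 3 rose and 3 fell, with a median log2 difference of -0.04. Klk6, a kallikrein, rose from 471 ± 90.5 to 1706 ± 154, 1.84 ± 0.14 on the log2 scale (adjusted p = 3.78e-05 in limma). Ctsl, a lysosomal cathepsin, rose by 0.45 ± 0.10. The membrane serine proteases St14 and Prss8, which act in 1 cascade of the upper epidermis, fell from 708 ± 124 to 351 ± 51.4 and from 336 ± 79.5 to 187 ± 6.62, log2 differences of -0.98 ± 0.15 and -0.77 ± 0.16.

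Among 19 regulators of epidermal differentiation and lipid metabolism, 1 rose and 6 fell, with a median of -0.09. Grhl1, a Grainyhead factor, fell from 1593 ± 167 to 889.5 ± 93.1 (-0.83 ± 0.11), Zfp750 had a log2 difference of -0.55 ± 0.09 and Prdm1 one of -0.73 ± 0.13. Grhl3 and Klf4, which are needed for the barrier in mice, had log2 differences of 0.25 ± 0.14 and -0.13 ± 0.09 and did not pass. Both, and Nr1h3 (0.85 ± 0.19), the gene that rose, were named after their values were seen. The count that rose was 0 with a filter on all 6 arrays, and 2 with median centring or on dropping WT2 or KI3, in limma's test. It was also 0 without probe sets marked _s_at, _x_at or _a_at, which left out that of Nr1h3 (1450444_a_at) by its suffix alone. Gata3, a factor of hair follicle and epidermal fate, had a log2 difference of -1.04 ± 0.11.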
